A study of Mus musculus with 20 samples.

Results

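*Nkx2-5*, *Hand1*, *Hand2* and *Isl1* are 4 short genes for transcription factors of the developing heart, taken from 22367 protein-coding genes of the mouse annotation. They were selected on the measured peaks themselves, as heart factors thought to lack 5-formylcytosine (5fC) peaks in their gene bodies, so the body values below describe how they were chosen and were not tested. The selection held for *Nkx2-5*, *Hand1* and *Hand2*, whose bodies had no base under a peak in any library. It did not hold for *Isl1*, whose body carried 1500 bases under peaks in 1 *Tdg* null heart and 500 in the other, and which is described here as a gene with body peaks. Each gene was examined over its body and over 20 kb on each side, the 2 flanks and the body counted apart.

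5fC arises when TET enzymes oxidise methylated cytosine, mostly at CpG dinucleotides, and thymine DNA glycosylase (TDG) cuts it out so that an unmodified cytosine can be put back. Without TDG the oxidised base stays, which makes sites of active demethylation easier to detect. The heart is the first organ to work in the embryo, and a small set of transcription factors, among them NKX2-5, the HAND proteins and ISL1, sets up its progenitors and chambers. Many genes of this kind are short, lie in CpG-rich sequence and are controlled by enhancers at a distance.

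The data were 5fC pull-down peaks in mouse embryos at E11.5, taken from 4 dissected tissues (hindbrain, heart, liver, carcass), with 20 libraries from 12 embryos of 6 litters, of which 19 were used. WT and *Tdg* null embryos were littermates from crosses of heterozygotes. In the null allele a neomycin cassette stands in place of the sequence for the active part of TDG, and the deletion is present in every cell and not in 1 tissue. Strain and sex are not given in the sources used here. Hindbrain came from 4 WT and 4 *Tdg* null embryos, 1 of each genotype from litters A, O, Q and Z. Heart, liver and carcass came from 2 further pairs of a WT and a *Tdg* null embryo, called pair a and pair b, so those 3 tissues share embryos. Carcass is what was left of the embryo after the dissection. The *Tdg* null liver of pair b, set aside by the study for its quality, had 228 peaks and none in the 4 windows, and it is left out of every value unless named.

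WT libraries had 1563 to 42012 peaks, covering 0.0349% to 0.939% of the ungapped genome, and *Tdg* null libraries had 101344 to 254319, covering 2.68% to 8.09%. The *Tdg* null heart of pair a was the largest library, with 254319 peaks against 126531 in pair b. The deposited intervals carry no read count or height, so depth is unknown, and the tissue labels could not be checked against expression. A library averages over all cells of a tissue, so fewer cells with 5fC and less 5fC per cell cannot be told apart.

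*Nkx2-5*, a homeobox gene expressed in early heart progenitors, lies at chr17:26975609-26978510 on the minus strand of NCBIM37 (mm9), with 2 exons over 2902 bases. *Hand1*, a basic helix-loop-helix factor of the left ventricle and of trophoblast, lies at chr11:57642207-57646320 on the minus strand, with 3 exons over 4114 bases. *Hand2*, its relative in the right ventricle, limb bud and branchial arches, lies at chr8:59799780-59803314 on the plus strand, with 2 exons over 3535 bases. *Isl1*, a LIM-homeodomain gene of the second heart field and of motor neurons, lies at chr13:117088478-117099896 on the minus strand, with 6 exons over 11419 bases. The median protein-coding gene spans 15427 bases, and 42.6% of genes are no longer than *Isl1*.

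The bodies of *Nkx2-5*, *Hand2* and *Hand1* were rich in CpG, at 6.44, 5.83 and 3.55 CpG per 100 bases against a median of 1.21 over all protein-coding genes. Only 1.27%, 1.68% and 5.03% of genes had more. *Isl1*, at 1.67 per 100 bases, was exceeded by 27.2% of genes. CpG islands, called here on the sequence by a strict definition given below, made up 75.3% of the *Nkx2-5* body, 49.0% of *Hand2*, 39.8% of *Hand1* and 8.14% of *Isl1*.

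The promoter sequences are shown for the CpG near the start sites. No library had a peak at the annotated start of any of the 4 genes, which for *Nkx2-5*, *Hand1* and *Hand2* follows from their selection. RefSeq windows from 250 bases before to 50 after the start were at hand for 3 of the 4 genes, *Nkx2-5*, *Hand2* and *Isl1*, in GRCm38.p6 coordinates. They are printed on the strand of the gene, 5′ to 3′, with every CpG in capitals. The motif searched was CG, which reads the same on both strands.
Nkx2-5 promoter, chr17:26841516-26841815 (-): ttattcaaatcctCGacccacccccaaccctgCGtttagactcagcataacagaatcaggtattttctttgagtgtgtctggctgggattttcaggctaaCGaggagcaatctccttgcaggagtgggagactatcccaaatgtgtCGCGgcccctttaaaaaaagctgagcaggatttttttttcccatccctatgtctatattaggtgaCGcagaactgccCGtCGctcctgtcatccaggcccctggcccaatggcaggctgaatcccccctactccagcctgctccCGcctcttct
Hand2 promoter, chr8:57320733-57321032 (+): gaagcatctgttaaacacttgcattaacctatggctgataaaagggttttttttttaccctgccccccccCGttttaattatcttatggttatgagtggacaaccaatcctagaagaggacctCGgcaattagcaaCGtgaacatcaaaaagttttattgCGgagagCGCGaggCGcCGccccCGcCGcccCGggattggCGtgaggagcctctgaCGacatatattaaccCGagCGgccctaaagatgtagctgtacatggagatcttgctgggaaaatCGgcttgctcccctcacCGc
Isl1 promoter, chr13:116309639-116309938 (-): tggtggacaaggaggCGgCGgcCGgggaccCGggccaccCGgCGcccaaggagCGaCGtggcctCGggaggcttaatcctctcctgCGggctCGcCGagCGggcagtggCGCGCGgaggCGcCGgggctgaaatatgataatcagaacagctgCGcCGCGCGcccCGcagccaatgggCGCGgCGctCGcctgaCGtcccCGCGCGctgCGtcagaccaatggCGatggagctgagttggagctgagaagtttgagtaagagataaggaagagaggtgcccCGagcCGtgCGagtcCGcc

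These windows held 9, 17 and 37 CpG. Of 32851 RefSeq promoter windows of the same length, 94.6% held a CpG and the median held 7. As many as in *Nkx2-5* were found in 45.8%, as many as in *Hand2* in 31.4% and as many as in *Isl1* in 5.58%.

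For comparison, the sequences under peaks of both *Tdg* null hearts are shown, from the longest such stretch of each gene, together with the stretch that was under a peak in most libraries. At *Nkx2-5* the 3 stretches of both hearts tied at 800 bases, and the one nearest the start is printed. Each is the central 300 bases of the part that all libraries with the stretch had in common, in NCBIM37 coordinates, on the strand of the gene and with CpG in capitals.
Nkx2-5 heart stretch, upstream, chr17:26996501-26996800 (-): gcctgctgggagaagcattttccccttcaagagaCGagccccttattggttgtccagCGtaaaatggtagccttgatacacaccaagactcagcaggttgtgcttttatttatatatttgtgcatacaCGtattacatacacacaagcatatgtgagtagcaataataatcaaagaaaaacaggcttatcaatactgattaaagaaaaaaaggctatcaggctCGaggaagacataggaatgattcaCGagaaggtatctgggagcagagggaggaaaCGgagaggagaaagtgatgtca
Hand1 heart stretch, downstream, chr11:57632751-57633050 (-): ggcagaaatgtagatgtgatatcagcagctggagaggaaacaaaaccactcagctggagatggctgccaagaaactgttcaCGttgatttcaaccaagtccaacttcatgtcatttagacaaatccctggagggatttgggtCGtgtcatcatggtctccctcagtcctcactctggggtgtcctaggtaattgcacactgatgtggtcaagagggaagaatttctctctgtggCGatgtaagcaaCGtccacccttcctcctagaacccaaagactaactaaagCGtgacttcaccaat
Hand2 heart stretch, downstream, chr8:59805001-59805300 (+): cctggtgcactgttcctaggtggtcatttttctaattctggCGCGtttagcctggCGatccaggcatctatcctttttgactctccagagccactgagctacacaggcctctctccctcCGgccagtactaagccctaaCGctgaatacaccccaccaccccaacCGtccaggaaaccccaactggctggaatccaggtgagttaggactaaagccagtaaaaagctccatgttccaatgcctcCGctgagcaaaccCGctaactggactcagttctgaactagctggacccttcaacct
Isl1 heart stretch, intron 3 and exon 4, chr13:117093401-117093700 (-): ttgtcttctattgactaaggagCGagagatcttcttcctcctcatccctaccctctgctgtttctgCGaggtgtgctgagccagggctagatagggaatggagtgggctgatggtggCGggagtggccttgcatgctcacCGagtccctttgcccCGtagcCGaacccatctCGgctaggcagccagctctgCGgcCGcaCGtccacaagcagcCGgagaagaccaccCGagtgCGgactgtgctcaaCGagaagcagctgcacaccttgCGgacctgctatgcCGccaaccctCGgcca
Isl1 hindbrain and carcass stretch, downstream, chr13:117069451-117069750 (-): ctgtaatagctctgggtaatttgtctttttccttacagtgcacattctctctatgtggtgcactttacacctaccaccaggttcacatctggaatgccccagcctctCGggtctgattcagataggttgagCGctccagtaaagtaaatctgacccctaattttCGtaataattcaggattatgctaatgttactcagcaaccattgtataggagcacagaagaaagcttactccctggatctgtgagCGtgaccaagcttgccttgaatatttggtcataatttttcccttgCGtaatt

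They held 6, 5, 8, 17 and 5 CpG. Only the *Isl1* stretch over exon 4, with a GC content of 60.7%, reached the CpG number of the *Hand2* promoter, and the other 4 were between 41.7% and 53.3% GC. A CpG in these windows is a place where 5fC could form and does not by itself mark a modified base.

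Body values came first. *Nkx2-5*, *Hand1* and *Hand2* had 0 bases and 0 peaks in the body in each of 19 libraries. The *Isl1* body had 3 peaks over 1500 bases in the *Tdg* null heart of pair a and 1 peak over 500 bases in that of pair b, and 0 in the other 17 libraries, WT hearts included. The mean of *Tdg* null heart was 1000 ± 707 bases (SD, n = 2). The *Isl1* peak that both hearts shared ran from 6096 to 6795 bases after the start site in pair a and to 6595 in pair b. It covered 287 of the 287 bases of exon 4 in pair a and 240 in pair b, with intron on one or both sides. The other 2 *Isl1* body peaks, in pair a alone, lay from 7796 to 8195 over all 168 bases of exon 5 and from 10496 to 10895 in the 3′ UTR.

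A body without a peak is common among short genes. Over the 19 libraries, 23.8% of all protein-coding genes had no body base under a peak, and among the 9523 genes no longer than *Isl1* the share was 47.8%. In both *Tdg* null hearts together it was 60.2% of these short genes. All 4 genes have a CpG island in the body. Among the 3916 short genes with an island in the body, 28.8% had no body base over the 19 libraries and 42.7% had none in both *Tdg* null hearts. Among the 5607 short genes without one the shares were 61.1% and 72.4%, and these genes were shorter, with a median body of 2203 bases against 5321.5. By library, 61.5% (heart, pair a) to 83.2% (liver, pair a) of the short genes had none in *Tdg* null tissue, and 94.5% to 99.7% had none in WT. If peaks were spread evenly, the 3 bodies of *Nkx2-5*, *Hand1* and *Hand2* would together hold 854 bases in the *Tdg* null heart of pair a and 384 in that of pair b. Since the genes were chosen for these values, nothing more is read from the count of 3 in 4.

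No peak lay at a start site. For *Nkx2-5*, *Hand1* and *Hand2* this follows from the selection, since the start is the first base of a body without peaks. The selection also keeps peaks off the downstream side of these starts, so the spans and distances below are a description. The stretch around the start site that was free of peaks in all 19 libraries was 21800 bases long at *Nkx2-5*, from 17791 bases upstream to 4010 downstream. It was 19300 bases at *Hand1*, 10700 at *Hand2* and 25000 at *Isl1*. In the *Tdg* null heart of pair a the nearest peak lay 4010 bases from the start of *Nkx2-5*, 7520 from *Hand1*, 5121 from *Hand2* and 6096 from *Isl1*, all farther than the median of 2361 over all genes. In that library 41.1%, 30.6%, 36.9% and 34.0% of genes were as far or farther. For *Nkx2-5*, *Hand1* and *Hand2* the selection partly sets this comparison. In pair b the distances were 17791, 12181, 5121 and 6096 bases against a median of 6947, so *Hand2* and *Isl1* were nearer than the median gene there.

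**Figure D1:**
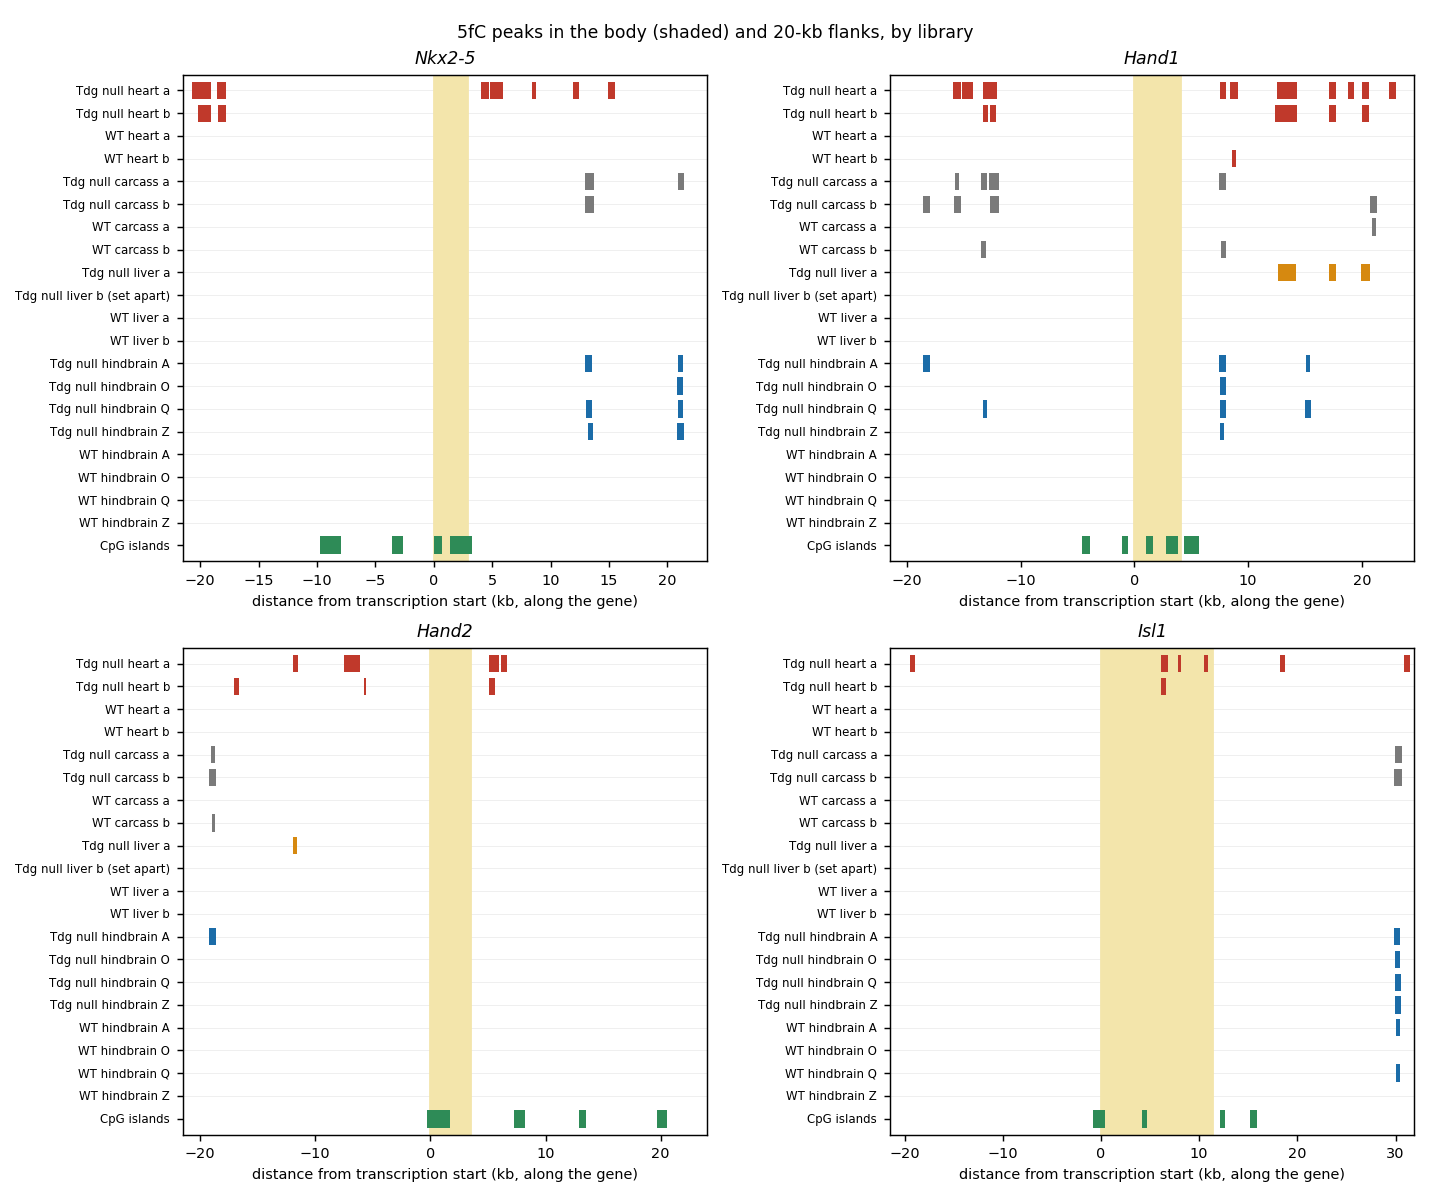
Each panel shows 1 gene, with the distance from its start site in kb along the gene on the x axis and 1 row per library. Coloured bars are 5fC peaks (red heart, grey carcass, orange liver, blue hindbrain), the shaded band is the gene body and green bars are CpG islands. The bodies of *Nkx2-5*, *Hand1* and *Hand2* are empty in every row, the *Isl1* body holds peaks in both *Tdg* null hearts, and no peak overlaps an island of the strict definition drawn here.

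*Nkx2-5* carried flank peaks in every *Tdg* null tissue but liver and in no WT library. *Tdg* null hindbrain had 1000 flank bases under peaks in litter A, 500 in O, 900 in Q and 1000 in Z, against 0 in each WT hindbrain. *Tdg* null carcass had 1300 bases in pair a and 800 in pair b. *Tdg* null heart had 4910 and 1610. The retained *Tdg* null liver had 0. The hearts were thus the highest libraries, and they stood well apart from each other.

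The places differed by tissue. Hindbrain and carcass peaks of *Nkx2-5* fell into 2 downstream stretches, from 12910 to 13709 and from 20810 to 21409 bases after the start, under peaks in 5 libraries each and in neither heart. Heart peaks fell into 9 other stretches. Of these, 3 lay upstream, between -20690 and -17791 (negative positions lie before the start), and were present in both hearts and in no other library. The other 6 lay downstream between 4010 and 15509 and were present in the heart of pair a alone. The 2 farthest upstream stretches overlapped the non-coding genes Gm17382 and Gm20468, and the rest were intergenic.

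*Hand1* had the most flank bases of the 4 genes. *Tdg* null hindbrain had 1500, 500, 1300 and 400 bases in the order A, O, Q, Z, against 0 in all 4 WT hindbrains. *Tdg* null carcass had 2400 and 2600 in pairs a and b, against 300 and 800 in WT carcass. *Tdg* null heart had 8200 and 4100, against 0 and 300 in WT heart. The single *Tdg* null liver had 3000, and both WT livers had 0. In bases, every *Tdg* null value of *Hand1* was above every WT value of its tissue. Relative to how much each library covered, as the fold explained below, this did not hold, since the WT heart of pair b was at 6.24 and the WT carcass of pair b at 2.49, above both *Tdg* null libraries of their tissues.

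Heart and liver shared *Hand1* peaks. The stretches from 12320 to 14319, 17120 to 17719 and 19920 to 20719 bases after the start were under peaks in both *Tdg* null hearts and in the *Tdg* null liver of pair a, and in no other library. A further stretch, from 7420 to 8019, was under a peak in all 4 *Tdg* null hindbrains, in the *Tdg* null carcass and heart of pair a and in the WT carcass of pair b. Upstream, the stretch from -13480 to -11881 was under peaks in 6 libraries, among them both *Tdg* null hearts, both *Tdg* null carcasses and the WT carcass of pair b. The only WT heart peak in any of the 4 windows, in pair b, lay from 8620 to 8919 bases after the *Hand1* start, within a peak of the *Tdg* null heart of pair a.

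A pair of protein-coding genes reaches into the *Hand1* flanks. Sap30l, which encodes a protein of a histone deacetylase complex, lies on the opposite strand, from 31181 to 22601 bases after the *Hand1* start. Its 3′ end is thus the nearer one, and a peak of the *Tdg* null heart of pair a, from 22420 to 23019, overlapped that end. Its body had bases under peaks in 10 of 19 libraries. Gm11003, a short gene between -5271 and -4946, had none in 19. The flanks of *Hand2* and *Nkx2-5* hold only non-coding neighbours, and those of *Isl1* hold no annotated gene.

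*Hand2* peaks were few outside the heart. *Tdg* null hindbrain had 600 bases in litter A and 0 in the other 3 litters, and WT hindbrain had 0 throughout. *Tdg* null carcass had 400 and 600 bases in pairs a and b, against 0 and 300 in WT. The *Tdg* null liver of pair a had 300. *Tdg* null heart had 3100 and 1200, against 0 in both WT hearts. The hindbrain groups therefore overlapped at 0, and in bases the 2 *Tdg* null hearts were above all other libraries. By the fold explained below this did not hold. The WT carcass of pair b was at 0.935, between the *Tdg* null hearts of pairs a and b at 0.958 and 0.824.

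The *Hand2* peak in hindbrain was in the same place as those in carcass, from -19179 to -18580, a stretch also under a peak in the WT carcass of pair b and in neither heart. Of 8 stretches at *Hand2*, 7 were under a peak in a *Tdg* null heart and 6 in *Tdg* null heart only. Both hearts shared only the stretch from 5121 to 5920 bases after the start, between the gene and a CpG island that begins at 7243. The heart of pair a had a further pair of adjoining peaks from -7479 to -6080, and the heart of pair b a peak of 200 bases from -5779 to -5580.

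*Isl1* was the gene of the 4 with flank peaks in WT hindbrain. *Tdg* null hindbrain had 700, 600, 700 and 700 flank bases in the order A, O, Q, Z, against 500, 0, 400 and 0 in WT hindbrain. *Tdg* null carcass had 800 and 900, and WT carcass 0 in both. *Tdg* null heart had 1523 in pair a and 0 in pair b, and WT heart, WT liver and *Tdg* null liver had 0. The lowest *Tdg* null hindbrain was 100 bases above the highest WT hindbrain, a single step of the peak grid.

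All *Isl1* flank peaks of hindbrain and carcass were 1 stretch, from 29796 to 30695 bases after the start and beyond the end of the gene. It was under a peak in 8 libraries, the 4 *Tdg* null hindbrains, both *Tdg* null carcasses and the WT hindbrains of litters A and Q, which no other stretch of the 4 windows matched. The WT hindbrain of litter A had only 1563 peaks in the whole genome. Neither heart had a peak there, although the *Tdg* null heart of pair a had one next to it, from 30896 to 31495.

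**Figure D2:**
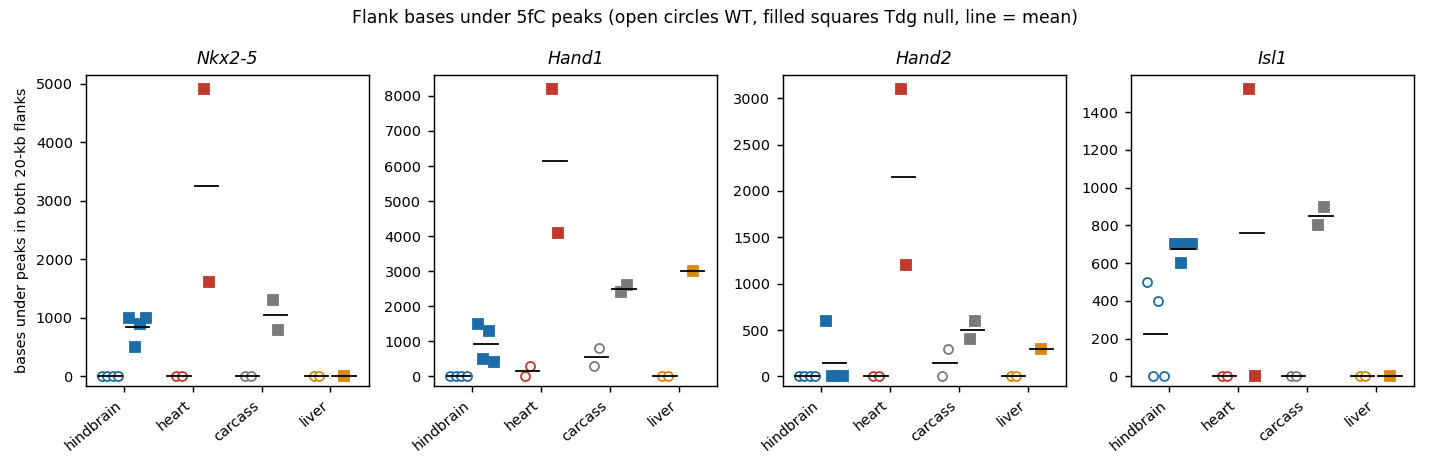
Bases under 5fC peaks in both 20-kb flanks (y axis, a scale of its own for each gene) by tissue, with 1 point per library, open circles for WT, filled squares for *Tdg* null and a line at the mean. *Tdg* null hearts reach 8200 bases at *Hand1* and 4910 at *Nkx2-5*, and *Isl1* is the gene whose WT hindbrains are not all at 0.

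In hindbrain, the tissue with 4 libraries of each genotype, flank bases were compared by a two-sided exact permutation test for every protein-coding gene, with Benjamini-Hochberg adjustment over all 22367. *Nkx2-5* was higher in *Tdg* null hindbrain by 850 bases (850 ± 238 against 0, mean and SD, n = 4 each), *Hand1* by 925 (925 ± 556 against 0) and *Isl1* by 450 (675 ± 50 against 225 ± 263). For each of these 3 the exact p was 0.0286, the smallest that 4 against 4 allow, the adjusted p was 0.0449 and the difference had the same direction in 4 of 4 litters. *Hand2* differed by 150 bases (150 ± 300 against 0), with an exact p of 1, and was higher in 1 of 4 litters. Of all genes, 63.5% were higher in *Tdg* null hindbrain by the same rule, which is also the share, 63.5%, whose 2 groups did not overlap. The 3 genes of 4 are read against that share and are not set apart by it. With the litters as pairs, the exact sign-flip test cannot go below p = 0.125, the value of all 3, and the adjusted p was 0.192, so no call was left. With the fold explained below in place of bases no call was left either, and the *Isl1* difference turned to -8.20, with the WT hindbrain of litter A at 32.7.

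Over all tissues, the *Tdg* null minus WT difference was taken in each of the 6 litters, tissues of a litter averaged first. *Hand1* gave 400 to 4433 bases per litter with a mean of 1822, *Nkx2-5* 500 to 2070 with a mean of 1112.5 and *Isl1* 200 to 774 with a mean of 504. Each was higher in 6 of 6 litters, with an exact sign-flip p of 0.03125, the smallest possible, and an adjusted p of 0.0488. *Hand2* gave 600 in litter A, 0 in litters O, Q and Z, 1267 in pair a and 750 in pair b, a mean of 436 with an exact p of 0.25 (adjusted p = 0.307) and a higher value in 3 of 6 litters. By this test 63.9% of all genes were higher in *Tdg* null tissue, the same 63.9% that were higher in every litter. The calls of both tests rested on that large share of genes at the smallest p. Over the litters no call was left without any 1 litter, with flanks of 10 kb, with peaks of at least 600 bp, with the number of peaks or with the fold, where *Isl1* turned to -5.39.

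Libraries differ in how much they cover, and the *Tdg* null hearts of pairs a and b covered 8.09% and 3.64% of the genome. Flank bases were therefore also divided by those a library would have in 2 flanks of this length if its covered bases were spread evenly, which is called the fold here. A fold of 1 is the library's own average. In *Tdg* null heart, pair a first, the fold was 2.53 and 2.82 at *Hand1*, 1.52 and 1.11 at *Nkx2-5*, 0.958 and 0.824 at *Hand2* and 0.471 and 0 at *Isl1*. Thus *Hand1* and *Nkx2-5* were above the average in both hearts, and *Hand2* and *Isl1* were below it in both.

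The other *Tdg* null libraries were lower for 3 of the 4 genes. At *Nkx2-5* the highest of the 7 was 0.695 (hindbrain A) and the lowest 0 (liver). At *Hand2* the highest was 0.417 (hindbrain A), and hindbrains O, Q and Z were at 0. At *Hand1* the liver of pair a reached 2.47, close to the lower heart, and the hindbrains and carcasses lay between 0.272 and 1.11 at this gene. At *Isl1* the highest was 0.561 (hindbrain O), above both hearts. Both hearts were above all 7 other *Tdg* null libraries at *Nkx2-5*, *Hand1* and *Hand2*, a pattern that 14.8% of all genes had. It was left at 1 of the 4 genes with flanks of 10 kb or with peaks of at least 600 bp, and at 2 by the number of peaks. No test is given, since the 2 hearts share their embryos with the carcass and liver libraries they are set against.

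Averaged over the 2 hearts, the fold was 2.67 at *Hand1*, 1.31 at *Nkx2-5*, 0.891 at *Hand2* and 0.235 at *Isl1*. Of all protein-coding genes, 12.1% were higher than *Hand1*, 35.2% than *Nkx2-5*, 47.7% than *Hand2* and 71.8% than *Isl1*. In the other *Tdg* null libraries the means were 1.02, 0.479, 0.150 and 0.384, and 39.0%, 61.5%, 77.8% and 66.0% of genes were higher. The flanks of *Hand2* in heart were thus near the median of all genes, 0.819, and those in the other tissues were below the median of 0.735.

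**Figure D3:**
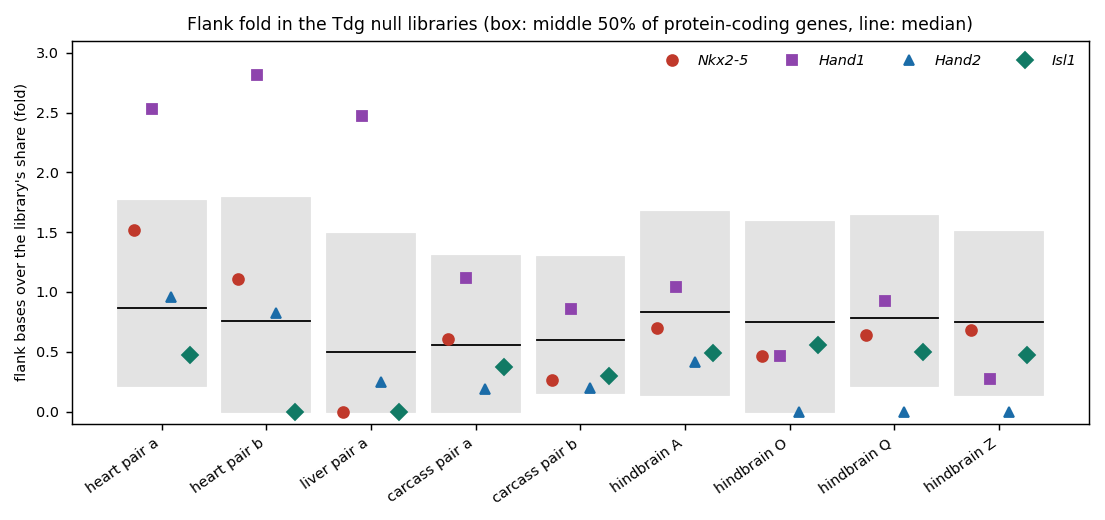
Flank fold (y axis, flank bases over those at the library's own share of the genome, no unit) of the 4 genes in the 9 *Tdg* null libraries used. Grey boxes span the middle 50% of all protein-coding genes and the black line is their median. *Hand1* lies above the box in both hearts (2.53 and 2.82) and in liver (2.47), and *Hand2* is at 0 in 3 of 4 hindbrains.

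Over the 4 windows, 39 separate stretches were under a peak in at least 1 library. Of these, 32 were under a peak in a *Tdg* null heart, 24 in *Tdg* null hearts only, and 9 in both. The number present in both hearts and nowhere else was 5, of which 3 were at *Nkx2-5*, 1 at *Hand2* and 1 at *Isl1*. At *Hand1* no stretch was in both hearts and nowhere else, and 4 were in both hearts and another tissue. WT peaks were found in 6 stretches, 4 of them at *Hand1*. Most of the 24 stretches were in the heart of pair a alone. The larger coverage of the heart of pair a moves with these counts, and its part in them was not tested. No share over all genes stands beside these counts, so nothing particular to the 4 genes is read from them.

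How far peaks reached CpG islands depended on what counts as an island. By the strict definition used here, windows of 500 bases with at least 55% GC, none of the 39 stretches overlapped 1 of the 17 islands of the 4 windows, which make up 9.35% of their bases, and no such island had a base under a peak in any of 19 libraries. The *Tdg* null hearts of pairs a and b had 19233 and 7410 peak bases in the windows, 0 of them in these islands. Over the genome, 36.7% of 21332 islands had peak bases in at least 1 of the 19 libraries, 22.6% in the *Tdg* null heart of pair a and 9.28% in that of pair b. Islands made up 0.912% of the genome and held 0.848% and 0.758% of the peak bases of those hearts.

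By a looser definition, windows of 200 bases with at least 50% GC, 7 of the 39 stretches overlapped an island and 7 of 49 islands in the windows had peak bases. The stretches were 3 at *Nkx2-5*, between 4010 and 15509 bases after the start, 1 at *Hand1*, from 7420 to 8019, 2 at *Hand2*, and the *Isl1* stretch over exon 4, of which 436 bases lay in such an island. The hearts of pairs a and b then had 1835 and 452 peak bases in islands. Looser islands made up 14.6% of the windows and 2.67% of the genome, and 39.6% of them had peak bases in at least 1 library. They held 5.98% and 7.09% of all peak bases of those hearts, above their share of the genome, where strict islands held less than theirs. Absence of peaks from the islands is therefore stated for the strict definition only, under which 7 of the 39 stretches lay within 2 kb of an island, at least 1 at each gene. Since the bodies hold many of these islands and chose the genes, the counts are a description.

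The peaks lay in sequence with CpG. Under the *Tdg* null heart peaks there were 1.65 CpG per 100 bases at *Nkx2-5* against 1.33 in its flanks as a whole, 1.55 against 1.52 at *Hand1*, 1.97 against 1.65 at *Hand2* and 1.98 against 1.11 at *Isl1*, whose heart peaks include those of the body. The bodies of *Nkx2-5*, *Hand1* and *Hand2*, at 6.44, 3.55 and 5.83, were above all of these.

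**Figure D4:**
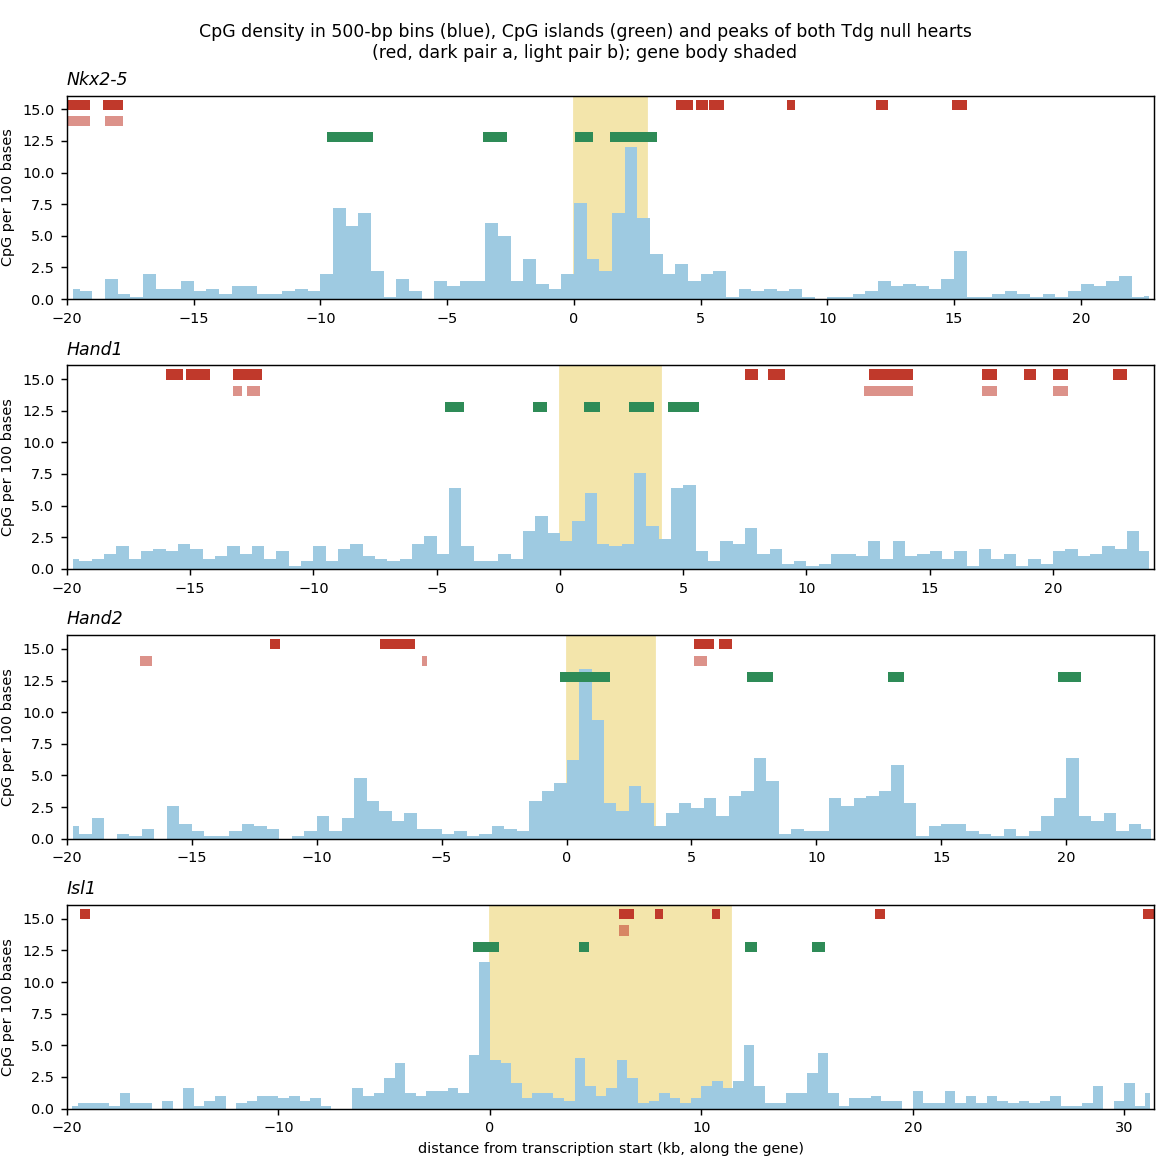
CpG per 100 bases in bins of 500 bases (blue, y axis) along each window, with the distance from the start site in kb on the x axis. Green bars are CpG islands, red bars the peaks of the *Tdg* null hearts of pair a (dark) and pair b (light), and the shaded band is the gene body. In all 4 panels the peaks lie outside the islands of this strict definition, and some lie at smaller rises in CpG, as at exon 4 of *Isl1*.

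The genes whose flank bases followed those of the 4 most closely over the 19 libraries were found by Pearson's r, as a description, since all libraries share the contrast of few peaks in WT and many in *Tdg* null tissue. For *Nkx2-5* they were 5730590G19Rik (r = 0.987) and Dpp4, a peptidase of the cell surface (r = 0.986). For *Hand1* they were Ddx60, a helicase (r = 0.991), and Chpt1, an enzyme of phosphatidylcholine synthesis (r = 0.991). For *Hand2* they were Mettl14, a subunit of the RNA m6A methyltransferase (r = 0.992), and Gm17301 (r = 0.987). For *Isl1* they were Ehmt1, a histone methyltransferase (r = 0.959), and Pls1, an actin-bundling protein (r = 0.952). Among the 4 genes themselves r was 0.951 for *Hand1* and *Hand2*, 0.941 for *Nkx2-5* and *Hand2*, 0.907 for *Nkx2-5* and *Hand1*, and 0.615 to 0.777 for *Isl1* with the other 3. The *Tdg* null heart of pair a was far the highest library at *Nkx2-5*, *Hand1* and *Hand2*, with 4910, 8200 and 3100 flank bases. Its part in r was not tested, and r over all genes is not given beside these values.

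A list of 26 other transcription regulators of the heart was set beside them. Of these, 18 had body bases under peaks in both *Tdg* null hearts, 3 in 1 heart and 5 in neither. The 5 were Foxc1, Foxc2, Mesp1, Nkx2-6 and Tcf21, which are transcription factors of mesoderm, outflow tract or epicardium, and their bodies were free of peaks in all 19 libraries. They span 1548 to 3990 bases, around the 2902 to 4114 of *Nkx2-5*, *Hand1* and *Hand2*, and 12 of the 26 were no longer than *Isl1*. So 5 of 12 short members of the list had no body base in the *Tdg* null hearts, where the share over all short genes was 60.2%.

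The flanks of these 5 ranged widely. In *Tdg* null heart, pair a first, Foxc2 had 8200 and 3400 flank bases, Foxc1 9904 and 1204, Mesp1 4174 and 800, Nkx2-6 900 and 900 and Tcf21 800 and 0. The most flank bases of the list were at Gata5, with 20300 and 9900, Zfpm1, with 16016 and 9654, and Gata4, with 13071 and 7800, which encode 2 GATA factors of the heart and the GATA cofactor FOG-1. Over the 26, the median fold was 1.54 in *Tdg* null heart and 0.835 in the other *Tdg* null libraries, against 0.819 and 0.735 over all genes. Both hearts were above the other 7 libraries in 9 of 26, where the share over all genes was 14.8%. By the adjusted test 20 of 26 were higher in *Tdg* null hindbrain, where the share over all genes was 63.5%, and none of these calls was left with the litters as pairs. The list was chosen with results of these data known, and nothing particular to it is read from these counts.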

How the data were processed

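Peak positions were as deposited. The authors trimmed reads with Trim Galore, aligned them to NCBIM37 (mm9) with Bowtie2, and ran the MACS caller of SeqMonk separately for every library, with fragments set to 200 bp and a cutoff of p = 1e-05. Input and duplicate handling are not given in the sources used here. Other than these positions, on a grid of 100 bp, the deposited files hold no values, and starts and ends were read as 1-based and inclusive. Peaks on 21 chromosomes were kept.

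Genes came from the GENCODE annotation of the same build. Bases under peaks were counted in the body and in flanks of 20 kb with Python 3.11.15, numpy 2.4.6 and scipy 1.17.1, and drawn with matplotlib 3.10.9. Islands were merged windows of 500 bases with at least 55% GC and observed over expected CpG above 0.65. This strict definition was adopted after a first one (200 bases, 50%, 0.6) had given 177485 islands in the genome, and the first is reported as the looser alternative. Tests were exact permutations or sign flips with Benjamini-Hochberg adjustment over all protein-coding genes, and were tested on simulated data. P-values rest on the spread between embryos in the hindbrain test and between litters in the test over litters. Those of the calls were the smallest that the number of units allows.

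The labels give a litter for every embryo, as A, O, Q and Z for hindbrain and as pair a and pair b for the other tissues. The embryos of pairs a and b have names with 1 prefix, and if both pairs were 1 litter the exact test over 5 litters could not go below p = 0.0625. Over all genes the deviations of littermate hindbrains from their group means correlated between -0.0387 and 0.0683. This check can show little about litters, since only 25.1% of genes had flank bases in any WT hindbrain. The unpaired test was kept as main although the embryos were paired by litter, and none of its calls was left with the litters as pairs.

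The 4 genes and the lists were chosen with earlier results of these data known. Named genes were these 4, protein-coding genes in their flanks, the 2 genes most correlated with each, and from the list of heart regulators those with no body base in *Tdg* null heart and the 3 with most flank bases. Alternatives were other flank lengths, peaks of at least 600 bp, peak counts, scaling, pairing and leaving out libraries. A further gene first placed on that list was left out and is not reported here. The non-coding genes Gm17382 and Gm20468 fall outside this rule and were named after their overlap with peaks was seen.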

Additional observations from a re-analysis of the deposited data

Results flagged for a closer look

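Of 16 sets of 4 hindbrain values, 5 varied at all, and 2 of these had a library far from the other 3 by Dixon's test. Chance gives about 1 set in 20 for values that vary smoothly, a rate that does not hold for these, in which the other 3 values were tied. *Hand2* in *Tdg* null hindbrain had 600 flank bases in litter A and 0 in the other 3 litters. The peak behind it lay from -19179 to -18580, where both *Tdg* null carcasses also had a peak. *Isl1* in *Tdg* null hindbrain had 600 flank bases in litter O and 700 in each of the other 3, which is 1 step of the 100 bp grid.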

How the results depend on the processing

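Of the 4 genes, 3 were called higher in *Tdg* null hindbrain. With flanks of 10 kb, with peaks of at least 600 bp, with the fold in place of bases and with the replicate block (litters as pairs) the number was 0, with smallest adjusted p-values over all genes of 0.0643, 0.0661, 0.0630 and 0.192. Leaving out 1 library gave 0 to 2. It was 0 without any 1 of the WT hindbrains A, O, Q and Z, where the smallest adjusted p was 0.0609 to 0.0629, and 2 (*Nkx2-5* and *Hand1*) without any 1 of the *Tdg* null hindbrains A, O, Q and Z. With the number of peaks it was 2, and *Isl1* lost its call (0.5 peaks, exact permutation test with adjusted p = 0.551). With flanks of 50 kb *Hand2* was called and *Isl1* was not. Over 6 litters the number was 3 in the main test and 0 with flanks of 10 kb, peaks of at least 600 bp, the number of peaks or the fold, 4 with flanks of 50 kb, where *Hand2* was also called, and 0 to 0 without 1 litter, since the exact test of 5 pairs cannot go below p = 0.0625. With the fold the *Isl1* difference turned to -8.20 in hindbrain and -5.39 over the litters, where the WT hindbrain of litter A had a fold of 32.7. Both hearts were above the other *Tdg* null libraries at 3 genes, and at 1 with flanks of 10 kb or peaks of at least 600 bp, at 2 with the number of peaks, and at 3 to 3 without 1 heart. The *Tdg* null liver of pair b changed no count. The 3 bodies without peaks stayed so when widened by 1 kb. With the looser islands 7 of 39 stretches overlapped an island, against 0 with the strict ones, which were adopted after the looser ones had been counted over the genome. With peaks of at least 600 bp the *Isl1* body had 700 and 0 bases in the hearts of pairs a and b. The cause of these changes was not tested where the number of libraries does not set it. Depth is unknown.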
